A study of Mus musculus with 14 samples.

Results

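Heat shock protein chaperones were followed in single cells sorted as haematopoietic stem cells (HSC), through 8 of the 25832 genes in the count tables. These were the cytosolic chaperones Hsp90ab1, Hsp90aa1, Hspa8 and Dnaja1, the chaperonin genes Hspd1 and Hspe1, the mitochondrial Hspa9 and the endoplasmic reticulum Hspa5. They were chosen by name, all 8 were in the table of each of the 4 plates, and all 8 passed the filter on low counts. The study examined mice lacking Phf19, a subunit that joins the Polycomb complex PRC2, which places the histone mark H3K27me3. Bone marrow cells were depleted of lineage-positive cells, sorted as CD150+ CD48- and sequenced by MARS-Seq, a plate-based method that counts the 3' ends of polyadenylated RNA in single wells. Each plate (350W, 351W, 352W and 353W) held 96 wells named KO and 96 named WT. The genotype of a cell comes from its name, since the plate labels give none, and the series describes KO as Phf19 KO mice and its controls as mice with a floxed allele. The sources used here do not give the deleting Cre, the age of the mice or how many mice supplied a plate. The 4 plates are thus the replicates. With the plate as a block, p-values measure how the difference between KO and WT cells varies from plate to plate, which may be technical. KO cells filled wells 97 to 192 and WT cells wells 1 to 96 of every plate, so genotype and well position cannot be told apart.

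Wells with 500 or more counts were kept, which left 335 KO and 381 WT cells and took out 49 KO and 3 WT wells. Summed counts were 220821 to 382307 per plate in KO cells and 311886 to 510791 in WT cells, and the median KO cell held 0.725 to 0.896 times the counts of the median WT cell of its plate. No cell name occurred in more than 1 table. Phf19 had 3 counts in all KO cells and 6 in all WT cells, too few to check the labels. Summed HSC markers were at 2808 to 4587 CPM (counts scaled to a common total for each sum) in KO cells and 2987 to 4659 CPM in WT cells, and none of the 17 tested was called. The plates differed in such sums in both genotypes. HSC markers summed to 4498 to 4659 CPM in 350W and 351W, against 2808 to 3301 CPM in 352W and 353W. Single markers did not all follow the sum. Ifitm1, the most counted, had 1218 to 1472 CPM, against 513 to 598 CPM, while Cd34 had 22.4 to 41.6 CPM, against 245 to 364 CPM. Of the 17 tested, both sums of 350W stood highest for 5, of 351W for 5, of 352W for 1 (Meis1) and of 353W for 3 (Cd34, Cd27 and Pdzk1ip1). Multipotent progenitor markers summed to 54.5 to 96.4 CPM in 350W and 351W, against 852 to 1241 CPM in 352W and 353W. One of these, Cd48, was sorted against. It had 222 CPM in KO and 195 CPM in WT cells of 352W, and 28.8 and 47.0 CPM in 353W. In 350W and 351W it had at most 4.51 CPM. Neutrophil and monocyte markers summed to 470 to 731 CPM in 350W and 351W, against 774 to 1014 CPM in 352W and 353W. Genes of the G2/M phase summed to 147 to 400 CPM in 350W and 351W, against 1007 to 1547 CPM in 352W and 353W. B and plasma cell markers reached 10751 CPM in KO and 17441 CPM in WT cells of 352W. Ighm, the heavy chain of IgM, was the only marker called between genotypes, lower in KO cells (edgeR adjusted p = 0.0246), but not without the 8 cells that held over 100 immunoglobulin counts (adjusted p = 0.993). T and NK cell markers summed to at most 86.3 CPM in KO and 95.9 CPM in WT cells.

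Chaperones hold unfolded proteins until they fold. Hsp70 proteins bind short exposed stretches of a client in cycles driven by ATP, Hsp40 partners such as Dnaja1 deliver clients and speed that cycle, and Hsp90 proteins act later, on kinases and receptors that are nearly folded. Hspd1 and Hspe1 encode the barrel and the lid of the mitochondrial chaperonin, Hspa9 the Hsp70 that pulls proteins into the mitochondrial matrix, and Hspa5 the Hsp70 of the endoplasmic reticulum, also called BiP, which binds immunoglobulin heavy chains among many clients. Under stress, heat shock factors raise the transcription of cytosolic and mitochondrial chaperones. That of Hspa5 is raised by the unfolded protein response, which senses misfolded protein in the endoplasmic reticulum. Stem cells of the bone marrow make protein slowly and are known to be sensitive to failures of protein quality control.

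The promoters of Hspe1 and Hspd1, Hspa5 and Dnaja1 are shown because only these of the 8 genes had a promoter window. Windows from 250 bases before to 50 bases after a start come from RefSeq, build GRCm38.p6. Such windows were matched for 4 of the 8 genes. Hspe1 and Hspd1 lie head to head on chromosome 1, Hspd1 at chr1:55077833-55088243 and Hspe1 at chr1:55088148-55091317, and the table holds 2 windows for Hspd1. The first, chr1:55087883-55088182 on the minus strand, shares 285 of 300 bases with the Hspe1 window. The second, chr1:55088194-55088493, which belongs to the start at the gene's annotated end, shares 4. The Hspe1 window is chr1:55087898-55088197 on the plus strand, the Hspa5 window chr2:34771840-34772139 on the plus strand and the Dnaja1 window chr4:40722218-40722517 on the plus strand. Capitals mark linked heat shock units in Hspe1 and Dnaja1 and the endoplasmic reticulum stress element in Hspa5.
Hspe1: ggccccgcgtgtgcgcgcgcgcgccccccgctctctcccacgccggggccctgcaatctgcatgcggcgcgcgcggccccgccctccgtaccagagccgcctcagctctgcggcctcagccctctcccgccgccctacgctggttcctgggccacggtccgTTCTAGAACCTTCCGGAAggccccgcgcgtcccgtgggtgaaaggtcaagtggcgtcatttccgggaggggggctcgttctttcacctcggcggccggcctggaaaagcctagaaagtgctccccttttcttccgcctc
Hspa5: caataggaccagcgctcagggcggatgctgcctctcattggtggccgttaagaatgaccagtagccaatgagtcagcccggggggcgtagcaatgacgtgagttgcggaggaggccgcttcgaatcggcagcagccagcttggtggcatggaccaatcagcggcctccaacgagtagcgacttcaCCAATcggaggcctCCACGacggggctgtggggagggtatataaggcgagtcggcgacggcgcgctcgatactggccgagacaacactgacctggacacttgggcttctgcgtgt
Dnaja1: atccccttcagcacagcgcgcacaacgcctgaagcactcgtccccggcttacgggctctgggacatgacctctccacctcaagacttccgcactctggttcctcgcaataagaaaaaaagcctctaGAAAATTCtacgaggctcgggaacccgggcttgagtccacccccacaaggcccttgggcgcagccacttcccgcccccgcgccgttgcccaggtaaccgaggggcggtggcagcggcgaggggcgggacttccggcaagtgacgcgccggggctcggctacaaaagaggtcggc
The heat shock unit searched was GAA and its reverse complement TTC in alternation with 2 bases between them, on both strands, and longer runs contain shorter ones. The Hspe1 window holds 4 linked units, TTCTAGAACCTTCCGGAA, at bases -89 to -72 from its start, and these letters fall inside the first Hspd1 window as well, while the second Hspd1 window holds no linked units. Of 32851 windows in the table, 8 (0.0244%) hold 4 linked units and 0.603% hold 3. The Dnaja1 window holds 2 linked units, GAAAATTC, at bases -124 to -117, as do 15.1% of all windows, and its other windows hold none. The stress element searched was CCAAT and CCACG with 9 bases between them, on both strands, found in 0.119% of windows, and the Hspa5 window holds it at bases -65 to -47. A match describes the letters and does not show that a factor binds them.

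None of the 8 chaperones was called between KO and WT cells. In a model over all 6541 genes with the plate as a block, 6 genes (0.0917%) were called at an adjusted p below 0.05 (edgeR quasi-likelihood test, Benjamini-Hochberg), 2 of them higher (0.0306%) and 4 lower (0.0612%) in KO cells, and 0 of the 8 chaperones were among them. None passed an unadjusted p of 0.05 in this model either, and DESeq2 called 0 of 8. Of the 8 log2 fold changes 3 were above 0, with a median of -0.06, against 49.3% above 0 and a median of -0.004 over the genes tested. The 95% intervals set what the data could hold: between -0.19 and 0.12 for Hsp90ab1, the best counted, and between -0.46 and 1.0 for Hspa9, the least. Summed over the 8 genes, KO cells held 2142, 2258, 2541 and 2100 CPM from plate 350W to 353W, against 2238, 2111, 2716 and 2208 CPM in WT cells. The sum averaged 2260 ± 198 CPM in KO and 2318 ± 271 CPM in WT cells (SD, n = 4 plates each), and the ranges overlap.

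**Figure D1:**
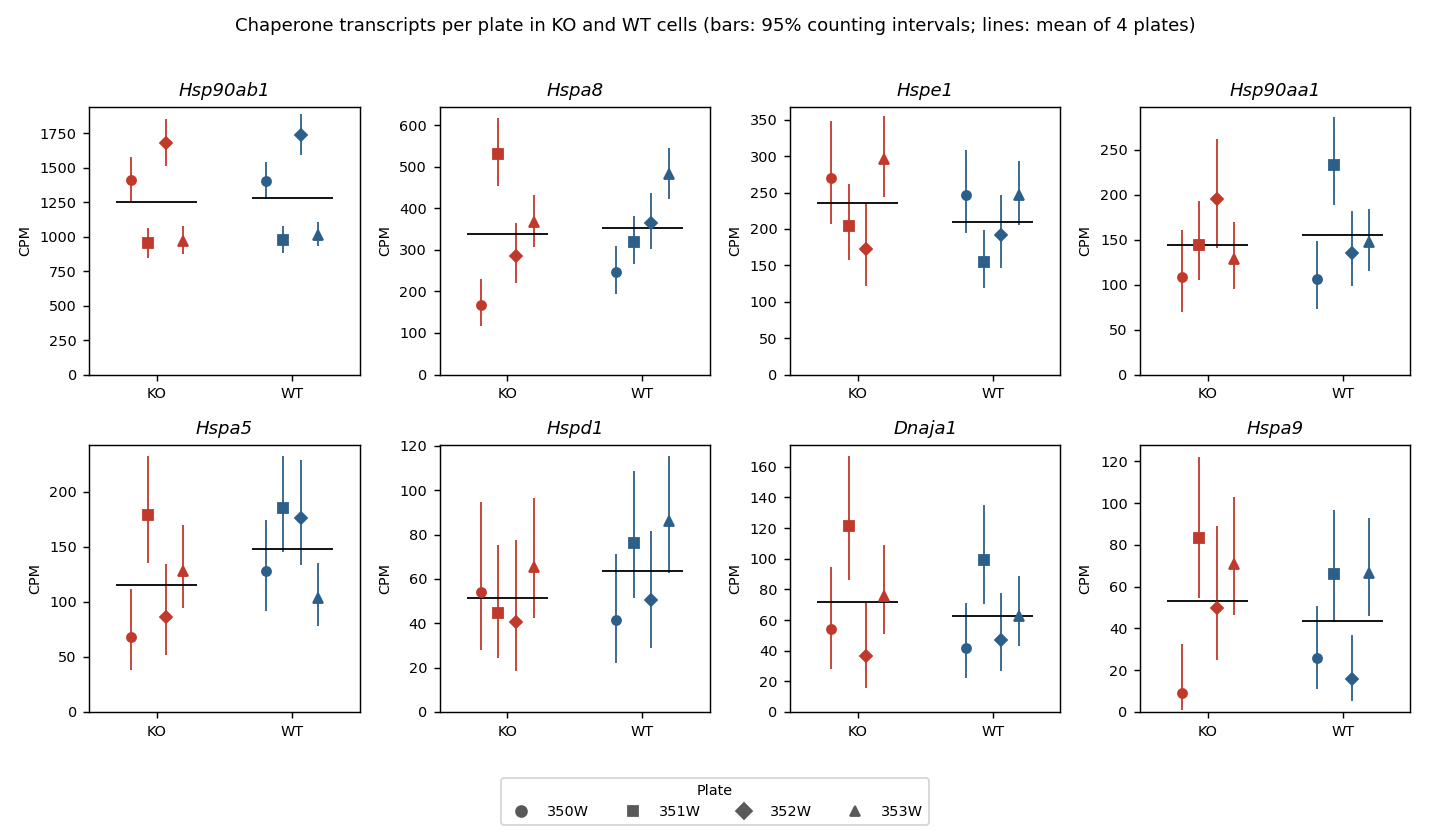
CPM of each chaperone gene in KO (red, left) and WT (blue, right) cells, with 1 symbol per plate, 95% Poisson intervals that cover counting error only, and a line at the mean of the 4 plates. Hsp90ab1 spread more widely over plates than between genotypes of a plate. It lay between 950.02 and 1676 CPM in KO cells and between 977 and 1734 CPM in WT cells.

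Among the Hsp90 genes, Hsp90ab1, the constitutive cytosolic form (chromosome 17), was the most counted of the 8. From plate 350W to 353W it stood at 1412, 950.02, 1676 and 970 CPM in KO cells. WT cells of the same plates had 1401, 977, 1734 and 1014 CPM. Within a plate the genotypes lay close together, while 352W stood above the other plates in both, as did 7.68% of all tested genes. The log2 fold change was -0.03 (SE 0.0733, edgeR adjusted p = 0.963), and KO was the higher in 1 of 4 plates. Hsp90ab1 made up 42.1% to 66.0% of the counts of the 8 genes in KO cells and 45.9% to 63.8% in WT cells. Hsp90aa1, the form that stress induces further (chromosome 12), had 108, 144, 195 and 128 CPM in KO cells, against 106, 233, 135 and 147 CPM in WT cells. No plate was high in both genotypes, and the log2 fold change was -0.13 (95% interval -0.55 to 0.28, edgeR adjusted p = 0.955). Without plate 351W it was 0.11. The ratio of Hsp90ab1 to Hsp90aa1 counts ran from 6.6 to 13.0 in KO cells and from 4.18 to 13.2 in WT cells, highest in 350W in both genotypes.

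Hspa8, the constitutive cytosolic Hsp70 (chromosome 9), ranked second in both genotypes. KO cells had 167, 531, 285 and 366 CPM in plates 350W to 353W, from 37, 166, 63 and 140 counts. WT cells had 247, 320, 365 and 482 CPM, from 77, 126, 116 and 246 counts. KO was the lower in 3 plates and the higher in 351W, where the counting intervals of 453 to 618 CPM for KO and 266 to 381 CPM for WT cells do not meet. The per-plate log2 ratios were -0.56, 0.73, -0.36 and -0.40, and the fitted value was -0.09 (SE 0.169, edgeR adjusted p = 0.961). Without plate 351W the fitted value was -0.41, with an unadjusted p of 0.00942 and an adjusted p of 0.938 (edgeR). With 1 sum per genotype in a plate, the difference between 351W and the other plates has no test. Dnaja1, a farnesylated Hsp40 that delivers clients to Hspa8 (chromosome 4), had 54.1, 122, 36.2 and 75.9 CPM in KO cells, against 41.7, 99.0, 47.2 and 62.6 CPM in WT cells. Plate 351W stood above the other 6 sums in both genotypes, and the log2 fold change was 0.20 (95% interval -0.33 to 0.73, edgeR adjusted p = 0.948).

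The genes of the chaperonin pair were unequal in counts. Hspe1, the lid, had 271, 205, 172 and 296 CPM in KO cells, against 247, 155, 192 and 247 CPM in WT cells. Hspd1, the barrel, had 54.1, 44.8, 40.8 and 65.4 CPM in KO cells, against 41.7, 76.1, 50.4 and 86.1 CPM in WT cells. Hspe1 counts exceeded those of Hspd1 in every plate and genotype. The ratio of Hspe1 to Hspd1 was 5, 4.57, 4.22 and 4.52 in KO cells, against 5.92, 2.03, 3.81 and 2.86 in WT cells. It was higher in KO cells in 3 of 4 plates, and the ranges overlap. The log2 fold changes had opposite signs, 0.18 for Hspe1 (95% interval -0.11 to 0.48, edgeR adjusted p = 0.872) and -0.32 for Hspd1 (-0.91 to 0.27, edgeR adjusted p = 0.899), and neither passed. Processed copies may share reads with both genes: 5 Hspe1 copies held 190 counts beside 600 for Hspe1, and 3 Hspd1 copies held 34 beside 163. Counts compare transcripts tagged at the 3' end and were not scaled by length.

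Hspa9, the mitochondrial Hsp70 (chromosome 18), was among the least counted. KO cells had 9.02, 83.2, 49.8 and 70.6 CPM, from 2, 26, 11 and 27 counts. WT cells had 25.7, 66.0, 15.7 and 66.6 CPM, from 8, 26, 5 and 34 counts. In both genotypes plates 351W and 353W stood above 350W and 352W. The log2 fold change was 0.27 (SE 0.348, edgeR adjusted p = 0.948), with KO the higher in 3 plates. It was 0.02 without plate 352W and 0.47 without 350W.

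Hspa5, the Hsp70 of the endoplasmic reticulum (chromosome 2), had 67.7, 179, 86.0 and 128 CPM in KO cells, against 128, 185, 176 and 104 CPM in WT cells. KO was the lower in 3 of 4 plates, by the most in 350W and 352W, with log2 ratios of -0.92 and -1.03. The fitted value was -0.30 (95% interval -0.77 to 0.16, edgeR adjusted p = 0.868), and 351W stood above the other 6 sums in both genotypes. Leaving out a plate gave values from -0.55 (without 353W) to -0.10 (without 352W), and thinned cells gave -0.54. Under all 13 alternatives the value stayed below 0. The lowest unadjusted p of Hspa5 among them was 0.0392 and the lowest adjusted p 0.781 (edgeR). In 352W part of the difference sat in a few cells. There, 4 WT cells with over 100 immunoglobulin counts held 16 of the 56 Hspa5 counts of that genotype, or 812 CPM (95% counting interval 464 to 1318), against 134 CPM (95.9 to 183) in the other 91 WT cells. All 4 had Hspa5 counts, of 7, 4, 3 and 2. The 3 KO cells of this kind held 2 Hspa5 counts, or 204 CPM (24.7 to 738), against 80.6 CPM (46.9 to 129) in the other 71 KO cells. The list of endoplasmic reticulum chaperones also holds genes of other roles, such as Sec61b. It summed to 2757 CPM in those 3 KO cells, against 1526 CPM in the other KO cells. In the 4 WT cells it summed to 4514 CPM, against 1480 CPM in the other WT cells. A single WT cell of 353W held 2 Hspa5 counts, and its list sum was 4422 CPM, against 2054 CPM in the other cells of that plate and genotype. The 8 cells were picked by immunoglobulin counts alone, they come from 2 plates, and no test was made between cells. Without them the log2 fold change of Hspa5 was -0.22 (edgeR adjusted p = 0.933). Hsp90ab1 had no shared direction in such cells of 352W, with 1940 CPM in the 3 KO cells, against 1663 CPM in the other KO cells, and 1217 CPM in the 4 WT cells, against 1769 CPM in the other WT cells.

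**Figure D2:**
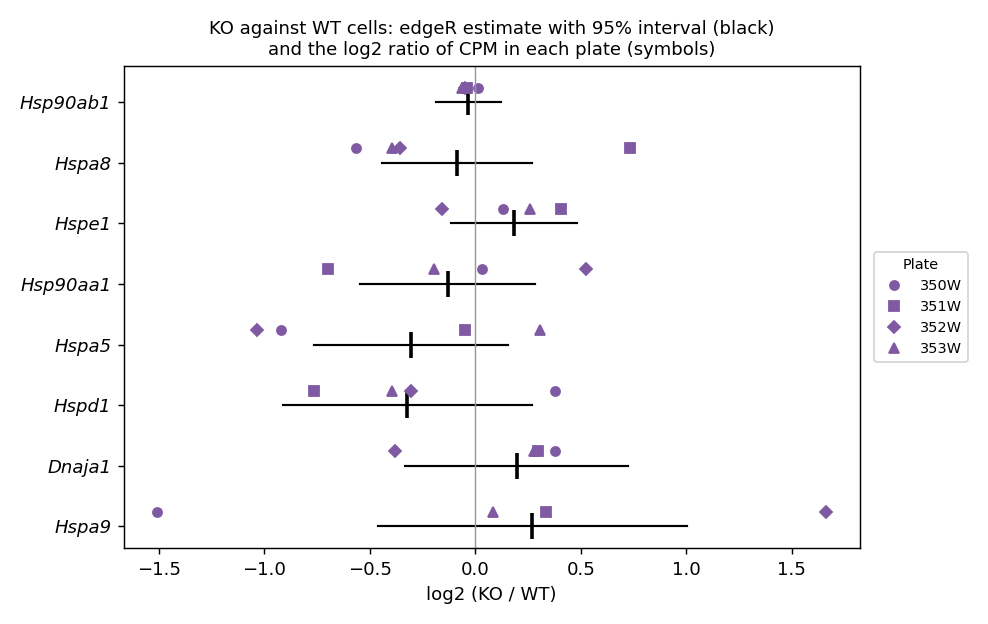
Log2 ratio of KO to WT cells for each chaperone gene: black ticks are edgeR estimates with their 95% intervals, and symbols are the ratios of CPM in each of the 4 plates. All 8 intervals hold 0. The narrowest runs from -0.19 to 0.12 for Hsp90ab1 and the widest from -0.46 to 1.0 for Hspa9.

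The order of mean levels in KO cells was Hsp90ab1, Hspa8, Hspe1, Hsp90aa1, Hspa5, Dnaja1, Hspa9 and Hspd1. In WT cells it was the same to Hspa5, with Hspd1, Dnaja1 and Hspa9 after it. The means were 1252 ± 354 CPM in KO and 1282 ± 358 CPM in WT cells for Hsp90ab1, 337 ± 153 and 353 ± 98.4 CPM for Hspa8, and 236 ± 57.2 and 210.1 ± 45.0 CPM for Hspe1 (KO and then WT cells, SD over 4 plates). They were 144 ± 37.0 in KO and 155 ± 54.8 in WT cells for Hsp90aa1, and 115 ± 49.5 in KO and 148 ± 38.9 in WT cells for Hspa5. Neighbours in this order overlapped over plates except Hsp90ab1 and Hspa8 in both genotypes and Hspa5 and Hspd1 in WT cells.

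Shares of cells with a count were compared at equal depth. Every cell was thinned to 1500 counts, which left 64 to 84 KO cells and 93 to 95 WT cells per plate. Hsp90ab1 was then counted in 74.7% to 91.7% of KO cells and 72.6% to 91.5% of WT cells. Hspa8 was counted in 13.1% to 57.8% of KO cells and 24.5% to 44.1% of WT cells. Hspe1 was counted in 17.2% to 28.6% of KO cells and 20% to 32.3% of WT cells, and Hspa9, the rarest, in 1.19% to 9.21% of KO and 2.13% to 7.37% of WT cells. Averaged over the 8 genes, the share in KO minus that in WT cells was 0.217 points thinned and -4.24 points unthinned, where KO cells were the shallower. With 4 plates an exact two-sided sign-flip test cannot go below p = 0.13, so no test was made on shares. A chaperone count was present in 96.3% to 100% of kept KO cells and in 98.9% to 100% of kept WT cells before thinning.

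After thinning, cell-to-cell spread was mostly close to that of counting. Thinning and low counts both draw the variance towards the mean, so this cannot show that cells were alike. Over the 64 combinations of gene, plate and genotype, the variance of the thinned counts was 0.835 to 2.97 times their mean, with a median of 1.15, and it exceeded the mean in 45. Hspa5 and Hspe1 exceeded it in all 8 groups of cells, and Hsp90ab1, the best counted, in 7. From 350W to 353W the variance of Hsp90ab1 was 1.46, 1.40, 1.66 and 1.34 times its mean in WT cells. In KO cells it was 0.835, 1.21, 1.08 and 1.05 times the mean, and this difference was not tested. The highest value, 2.97, was Hspa5 in WT cells of 352W, a group with immunoglobulin-rich cells described above. There, 13.8% of cells had an Hspa5 count and a Poisson count of the same mean gives 25.0%. Hspa5 also reached 2.15 in KO cells of 351W and 2.11 in WT cells of 350W, which held 0 such cells. In KO cells of 352W, with 3 such cells before thinning, it was 1.03. The part of such cells in this spread was not tested.

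**Figure D3:**
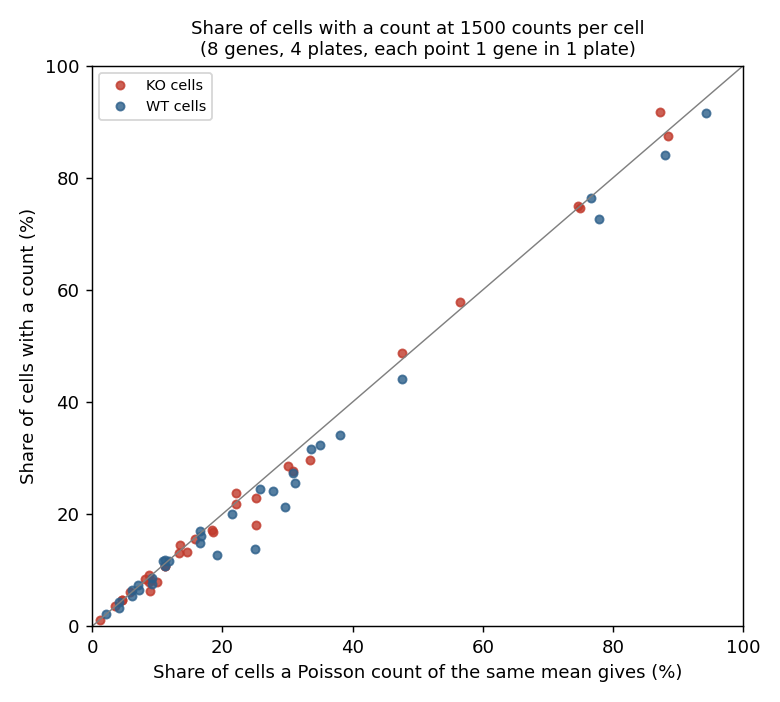
Share of cells with a count of each gene after thinning to 1500 counts per cell (vertical axis, %) against the share a Poisson count of the same mean gives (horizontal axis, %), for 8 genes in KO (red) and WT (blue) cells of 4 plates. Most points lie near the line of equality, and the one farthest below it is Hspa5 in WT cells of 352W, at 13.8% against 25.0%.

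Correlations among the 8 genes across cells lay near 0. The median Spearman correlation over the 8 groups of cells was 0.00122 across the 28 pairs, with 14 pairs above 0, from -0.0950 for Hspa5 and Dnaja1 to 0.114 for Hspa8 and Hspa5. The last was above 0 in 7 of 8 groups, but with cells thinned to 1000 counts it was -0.0271 and above 0 in 3 of 8. Hspe1 and Hspd1 stood at 0.0181. Of 1620 genes with a mean of 100 CPM or more, those most alike the sum of the 8 were Tnfaip8 (0.150), Gm20568 (0.146), Grb2 (0.128), Drap1 (0.128) and Gm5277 (0.127), and the least alike were Tbrg1 (-0.124), Gm14303 (-0.126) and Mrpl58 (-0.131). With cells thinned to 1000 counts none of these 8 genes was again among the highest 5 or lowest 3. Cells of a group share a library, counts are sparse, and these correlations are too weak to be a finding.

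In plate 351W several partners of the chaperones stood far above the other plates, in both genotypes alike. Ahsa1, the activator of the Hsp90 ATPase, had 467 CPM in KO cells of 351W, against 31.7 to 86.3 CPM in the other KO plates. In WT cells it had 497 CPM in 351W, against 31.5 to 76.4 CPM in the others. This was 8.14 times the mean of the other plates in KO and 9.19 times in WT cells, and 55.4% of thinned KO cells and 53.7% of thinned WT cells had a count, so it was spread over cells. Dnajb1, a stress-inducible Hsp40, had 425 CPM in KO cells of 351W, against 41.9 to 95.1 CPM in the other KO plates, and 373 CPM in WT cells, against 21.5 to 151 CPM. St13, which steadies the Hsp70 cycle, stood 2.98 times above the other plates in KO and 3.87 times in WT cells. Xbp1, the transcription factor of the unfolded protein response, had 166 CPM in KO and 132 CPM in WT cells of 351W, against at most 49.6 CPM in KO and 63.0 CPM in WT cells elsewhere.

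It was common for a plate to stand above the others in both genotypes by some margin, however small. How many genes differed by as much as Ahsa1 or Dnajb1 was not counted. Both sums of 351W stood above the other 6 for 10.1% of tested genes, and the same held for 8.71% of genes in 350W, 7.68% in 352W and 10.1% in 353W. Among the 8 chaperones it held for 2 in 351W (Hspa5 and Dnaja1), 1 in 352W (Hsp90ab1) and 0 in 350W and 353W. Among tested partners in 351W it held for 2 of 2 stress-inducible genes and 4 of 21 cytosolic co-chaperones. It also held for 2 of 13 genes of the cytosolic chaperonin TRiC and prefoldin and 3 of 16 of the endoplasmic reticulum list. Regulators of the unfolded protein response had 2 of 4, heat shock factors 0 of 3, and mitochondrial chaperones and proteases 0 of 8. Plate 353W was likewise highest for 4 of 21 co-chaperones (Fkbp4, Bag1, Hspbp1 and Dnajc8), 2 of 8 mitochondrial genes and 1 of 3 heat shock factors, but for 0 of 2 stress-inducible genes and 0 of 4 regulators of the unfolded protein response. Dnajc2, a ribosome-associated Hsp40, and Hsbp1, a binder of Hsf1, were among the 4 co-chaperones highest in 351W (both named because of these values). Dnajc2 stood at 214 CPM in KO and 256 CPM in WT cells of 351W. The strongly inducible Hsp70 genes Hspa1a and Hspa1b stayed at 0 to 6.4 CPM in KO and 0 to 18.9 CPM in WT cells over all plates. Plate 351W also had the lowest mitochondrial share of counts, 0.253% in KO and 0.623% in WT cells, and 2 of 9 tested immediate early genes (Fos and Egr1) stood highest there. Their part in the chaperone values was not tested.

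**Figure D4:**
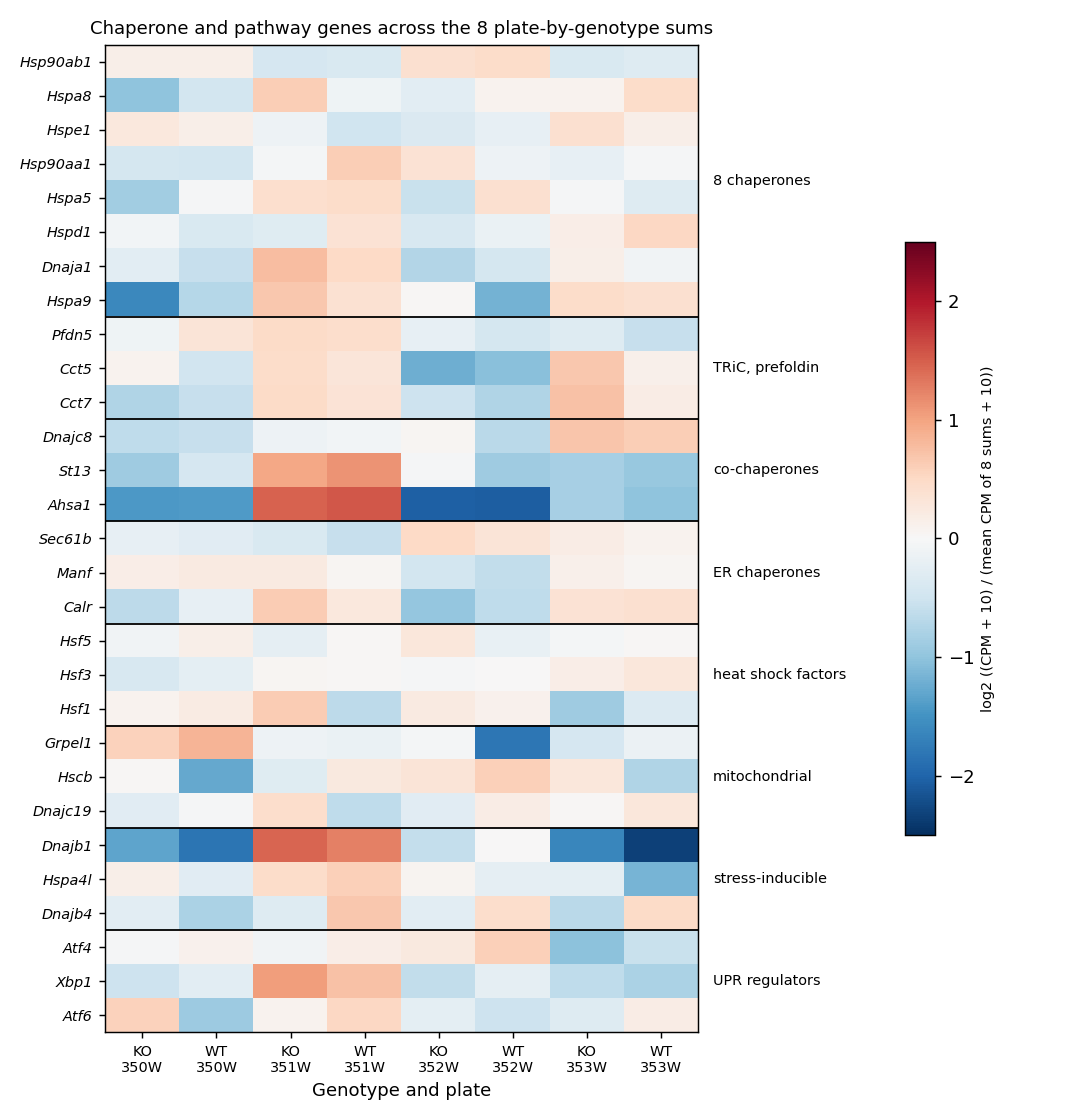
Levels of the 8 chaperones and of the 3 most counted genes of each partner list in KO and WT cells of each plate, as log2 of CPM plus 10 over the mean of the 8 sums plus 10 (red above, blue below the mean). Ahsa1, Dnajb1, St13 and Xbp1 are red in both columns of 351W, where Ahsa1 stood at 467 CPM in KO and 497 CPM in WT cells.

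Between KO and WT cells no gene of the partner lists was called, beside the 0.0917% of all tested genes. The lists held 2 tested stress-inducible genes of 12, with both fold changes above 0 (Dnajb1 at 0.12 and Hspa4l at 0.39, edgeR adjusted p = 0.961 and 0.869), and 21 cytosolic co-chaperones of 30, with 10 fold changes above 0 and a median log2 fold change of -0.01. The most counted of these were Dnajc8, a spliceosome-associated Hsp40, at 0.16, St13 at 0.06 and Ahsa1 at -0.01. Of 13 tested TRiC and prefoldin genes 8 lay above 0, with a median of 0.12. Cct5, a TRiC subunit, stood at 0.35 (95% interval 0.03 to 0.68, edgeR adjusted p = 0.756), Cct7, another subunit, at 0.26 (edgeR adjusted p = 0.839) and Pfdn5, of prefoldin, at 0.02. Of 16 tested genes of the endoplasmic reticulum list 9 lay above 0 (median 0.04). Among those named were Sec61b at 0.15, Manf at 0.09 and Calr at -0.02. Of 4 regulators of the unfolded protein response 2 lay above 0 (median -0.14), with Atf4 at -0.32 (edgeR adjusted p = 0.80), Xbp1 at 0.03 and Atf6 at 0.10. Of 8 mitochondrial genes 6 lay above 0 (median 0.06), among them Grpel1, the nucleotide exchange factor of Hspa9, at 0.13, Hscb at 0.33 and Dnajc19 at 0.05. Of the heat shock factors 3 were tested. Hsf1, the main regulator of the heat shock response, had 15.7 to 64.0 CPM in KO and 20.3 to 44.9 CPM in WT cells, and its log2 fold change was 0.28 (edgeR adjusted p = 0.954). Hsf5 had 195 to 285 CPM in KO and 201 to 257 CPM in WT cells, and Hsf3 had 171 to 262 CPM in KO and 192 to 284 CPM in WT cells.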

How the data were processed

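The authors deposited MARS-Seq data as unnormalized counts of each gene in each cell, 1 table per plate. The submitters' processing notes name GRCm38.p4 and FastQC and no aligner or counting step (not given in the sources used here). Patch releases of GRCm38 leave chromosome coordinates alone. Symbols came from RefSeq and gene name tables for 25714 of 25832 IDs.

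Cells with 500 or more counts were summed per plate and genotype, with no doublet caller. Counts were tested with edgeR 4.0.16 (TMM, filterByExpr, quasi-likelihood test, plate as block, R 4.3.3) over 6541 genes at an adjusted p of 0.05, after a check on simulated data. The block rests on both genotypes sharing a plate: sums of the same plate deviated together, with correlations of 0.551 to 0.652 over genes. Alternatives included DESeq2 1.42.0. Shares, variance and correlations used cells thinned to 1500 counts (seed 1). Intervals of CPM are exact Poisson at 95% and cover counting error only. Those of log2 fold changes come from the edgeR fit, and those of shares of counts are exact binomial. The members, lists and tests were chosen with earlier results of these data known. From each partner list the 3 genes of highest mean CPM are named. The H3K27me3 lists were not used here.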

Additional observations from a re-analysis of the deposited data

Results flagged for a closer look

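Wells of under 500 counts, which entered no comparison, also held chaperone counts: 4 in plate 351W, 45 in plate 352W and 7 in plate 353W. Each number exceeds 3, the limit set by finding no count, which takes no account of depth. In 352W, 22 of the 23 left-out wells were KO wells, and the chaperones made up 0.581% of their counts (exact binomial 95% interval 0.424% to 0.776%), against 0.264% in kept cells of the plate. Hsp90ab1 held 42 of those 45 counts, spread over 19 wells with at most 4 in a well, while Hspa8, Hspe1, Hsp90aa1, Hspa9 and Dnaja1 had 0. In 351W the share was 0.147% (0.0402% to 0.377%), against 0.218% in kept cells. In 353W the share was 0.154% (0.0620% to 0.317%), against 0.216% in kept cells.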

How the results depend on the processing

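Under all 13 alternatives 0 of the 8 chaperones were called between KO and WT cells, and adjusted p was 0.781 or higher, with 5 of the 8 tested in thinned cells, where the gene filter dropped Hspd1, Hspa9 and Dnaja1. Of 101 alternative log2 fold changes 6 turned in sign: Hspa8 was 0.076 with cells thinned to 1500 counts, and -0.41 to 0.058 without a replicate (above 0 without 350W, 352W or 353W, at 0.02, 0.0005 and 0.058). Hsp90aa1 was -0.33 to 0.11 without a replicate (above 0 without 351W), and Hspe1 was -0.21 with thinned cells. Without a plate, Hspa5 lay between -0.55 and -0.10, Hspd1 between -0.49 and -0.16, Hspa9 between 0.02 and 0.47, Dnaja1 between 0.15 and 0.32 and Hspe1 between 0.12 and 0.28. The 6 genes called became 0 with no replicate block (86 at an unadjusted p under 0.05), so the block changed that count and no chaperone call, 1 with DESeq2 (63 unadjusted), 26 when all genes were tested, 3 when all wells were summed, 2 with thinned cells and 2 without the immunoglobulin-rich cells. Leaving out a plate gave 2 (without 353W) to 12 (without 352W). The causes were not tested. Leaving mitochondrial and ribosomal protein genes out of the total moved the summed CPM to 2739 in KO and 2786 in WT cells, by construction. The mean difference in shares was -4.24 points in unthinned cells, where depth differs, and the median pair correlation was -0.0241 at 1000 counts per cell. Depth limits the less counted genes: Hspa9 rested on 2 to 34 counts per plate and genotype, and its interval held changes of up to 1.0 on the log2 scale.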
